A study of Mus musculus with 2 samples.

Results

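B cells and the plasma cells they give rise to were followed in liver and adipose tissue of mice on a high-fat or a normal diet through 7 marker genes: Cd79a, Cd79b, Cd22, Ms4a1, Pou2af1, Mzb1 and Jchain. They were found by matching each probe's transcript accession to its current gene symbol, and all 7 had a probe, of 20886 genes matched in all. The mice were wild-type C57BL/6J males given the high-fat diet (HFD) or the normal diet (ND) for 4 weeks. RNA of 10 adipose tissues and of 10 livers was combined by diet, and each tissue was measured on 1 array with 2 channels, the HFD pool in red (Cy5) and the ND pool in green (Cy3). Whether each pool held 10 animals or fewer, the age of the mice and the fat depot are not given in the sources used here. The arrays were not repeated and the dyes were not swapped, so the spread over animals is unknown, no p-value can be given, and dye and diet cannot be told apart.

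B cells carry a membrane antibody that signals through the paired chains CD79A and CD79B, and this receptor is tuned by co-receptors such as CD22. When B cells become plasma cells they lose much of this surface machinery and turn to secretion. The J chain then joins IgA or IgM into polymers that epithelia can carry to mucosal surfaces. Lymphoid clusters in visceral fat and the lining of the small intestine are both known to hold many B lineage cells, while liver holds fewer. In RNA from whole tissue, more cells of a type and more RNA per cell cannot be told apart.

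Values are given in 3 forms. A signal is the median pixel intensity of a spot, as deposited. A ratio is the log2 of the HFD pool over the ND pool after background correction and loess normalization within the array. A level is the log2 intensity of one channel after both arrays were given the same distribution of mean intensity. Each ratio is given with the scanner software's error for that spot, which covers the array measurement and not the animals, and calls rest on a size of 2-fold or more in one direction.

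A gene was measured when a probe was well above background in both channels, which held for 14315 genes on the adipose array and 13642 on the liver array. Green was the dimmer channel, with a median signal on the adipose array of 274 in the HFD pool (red) against 97 in the ND pool (green). Past 2-fold in the adipose HFD pool lay 605 genes upward (4.23%) and 735 downward (5.13%), and in the liver HFD pool 67 upward (0.491%) and 79 downward (0.579%). In the ND pools 16 of 16 adipocyte genes had a higher level on the adipose array than on the liver array (median difference 5.72), and 17 of 19 hepatocyte genes a lower one (-4.27), although all 19 were also measured on the adipose array. The adipose pools also held transcripts of other organs in unequal amounts. Of 28 measured genes of small intestine epithelium, 27 were at least 2-fold higher in the HFD pool, at a median ratio of 3.90. Of 19 hepatocyte genes 13 were lower and 3 higher (median -3.76), of 20 exocrine pancreas genes 15 were lower and 1 higher (-1.89), and of 7 genes of the male reproductive tract 6 were lower (-3.19). The higher gene of the pancreas list was Zg16 (3.97), which is also in the small intestine list. Of 11 measured skeletal muscle genes 5 were lower, at a median of -0.85. Each array is a slide of its own, so slide and tissue cannot be told apart.

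All 6 markers measured in the adipose pools had ratios above 0, and all 6 measured in the liver pools had ratios below 0, except that with median centring in place of loess Cd22 was at 0.34 in liver, where the median of all genes was then 0.32. The median of the 6 was 0.66 in adipose tissue and -0.25 in liver, where the medians of all measured genes were -0.01 and 0.01. Jchain alone passed 2-fold, in adipose tissue, which is 1 of 6 markers against the 4.23% of all genes given above. In liver none of the 6 passed 2-fold in either direction. Of all genes 49.3% had a ratio above 0 in adipose tissue and 47.7% a ratio below 0 in liver. The adipose ratio exceeded the scanner error in 6 of 6 markers (26.5% of all genes were higher by as much) and 2 scanner errors in 4 of 6 (13.7%). In liver 2 of 6 were lower by more than the error (11.7% of genes), and the same 2, Jchain and Cd79b, by more than 2 errors (3.3%).

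**Figure D1:**
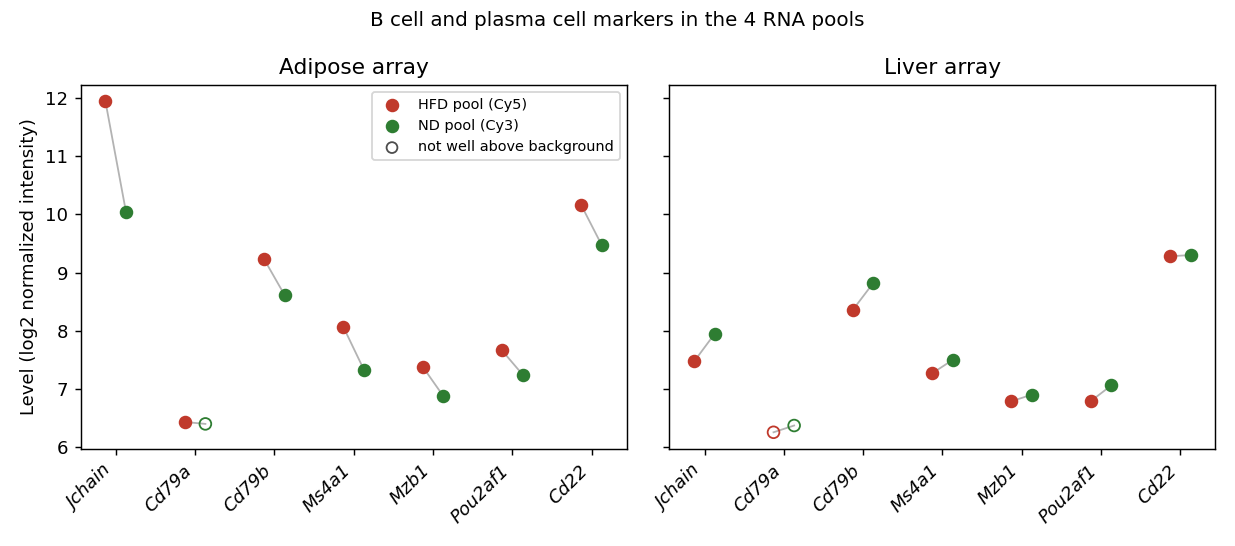
Level of each of the 7 markers, as log2 normalized intensity, in the HFD pool (red) and the ND pool (green) of the adipose array (left) and the liver array (right). Open circles were not well above background, and each point is 1 pool on 1 array. On the adipose array the HFD point of every marker lies above its ND point, by 1.91 for Jchain, and on the liver array below it, by 0.02 for Cd22 (which turns to 0.34 above it with median centring). Levels of different genes come from different probes and are not comparable with each other.

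Cd79a and Cd79b encode the signalling chains of the B cell receptor. The spot of Cd79b had a signal of 1460 in the HFD pool, against 206 in the ND pool, on the adipose array, and of 343 against 290 on the liver array. After correction of the dye difference the Cd79b ratio was 0.62 ± 0.22 (scanner error) in adipose tissue, 1.54-fold higher, and -0.47 ± 0.21 in liver. Both ratios lay more than 2 scanner errors from 0, in opposite directions. With local backgrounds as deposited, however, the liver ratio was within 1 error of 0 (-0.08). It was also within 1 error of 0 with median centring (-0.18), where the median of all liver genes was itself 0.32. Cd79a, its partner, could not be followed in the same way. Its probe had a signal of 111 in the HFD pool against 63 in the ND pool on the adipose array, where only the HFD channel was well above background. Its HFD level there was 1.02-fold its ND level, which does not separate the diets. On the liver array neither channel of the Cd79a probe was well above background, at 66 in the HFD pool and 64 in the ND pool.

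Cd22 encodes an inhibitory co-receptor that binds sialic acid and dampens receptor signalling. Its signal was 2781 in the HFD pool and 344 in the ND pool of adipose tissue, and 702 and 417 in the same pools of liver. The adipose ratio was 0.69 ± 0.22, or 1.62-fold higher, and lay 3.20 scanner errors above 0. In liver the ratio was -0.02 ± 0.20, well within the error, with 57.2% of all genes at a higher ratio. Ms4a1 encodes CD20, a membrane protein of mature B cells that plasma cells lack. Its signal was 593 in the HFD pool and 101 in the ND pool of adipose tissue, and 135 and 115 in liver. The ratio was 0.74 ± 0.24 (1.67-fold higher) in adipose tissue, where 6.59% of genes had a higher one, and -0.23 ± 0.23 in liver, which is the size of the error.

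Pou2af1 encodes OCA-B, a coactivator that B cells use with the octamer-binding factors at immunoglobulin promoters. It had a signal of 425 in the HFD pool and 97 in the ND pool of adipose tissue, and of 96.5 and 92.5 in liver. The adipose ratio was 0.42 ± 0.23 and the liver ratio -0.27 ± 0.28, within its error. Pou2af1 had the smallest ratio of the 6 measured markers in adipose tissue.

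Mzb1 encodes an endoplasmic reticulum protein that helps antibody assembly in plasma cells and in marginal zone B cells. It is the only marker with several spots, 10 of the same probe on each array, which show the technical spread within an array. In adipose tissue their signals ran from 266 through a median of 336 to 358 in the HFD pool. In the ND pool they ran from 69.5 through 79.5 to 88. In liver the 10 signals ran from 75.5 through 90 to 98 in the HFD pool and from 69.5 through 81 to 90.5 in the ND pool. These signals are before correction of the dye difference, so overlap of the channels does not compare the diets. Over all spots the median red and green signals were 274 and 97 on the adipose array, and 127 and 93 on the liver array. The adipose ratio was 0.51 ± 0.12 (SD over 10 spots) with all 10 above 0, between 0.36 and 0.72. The liver ratio was -0.12 ± 0.10 with all 10 below 0, between -0.29 and -0.01. These spots share the RNA, the labelling and the slide, and the scanner errors of the probe were larger, 0.27 in adipose tissue and 0.34 in liver. In liver the red channel was well above background in 8 of the 10 spots.

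Jchain encodes the joining chain of polymeric IgA and IgM, made by antibody-secreting cells. In adipose tissue its signal was 9291 in the HFD pool and 465 in the ND pool. In liver it was 157 in the HFD pool and 153 in the ND pool. The adipose ratio was 1.91 ± 0.27, or 3.76-fold higher, and 1.63% of all measured genes had a higher one. The liver ratio was -0.48 ± 0.23, or 1.39-fold lower in the HFD pool, with 2.75% of genes at a lower one. Jchain was the marker farthest from 0 in adipose tissue, while in liver it and Cd79b (-0.47) differed by less than their errors. Without Jchain the median of the 5 other adipose ratios was 0.62.

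**Figure D2:**
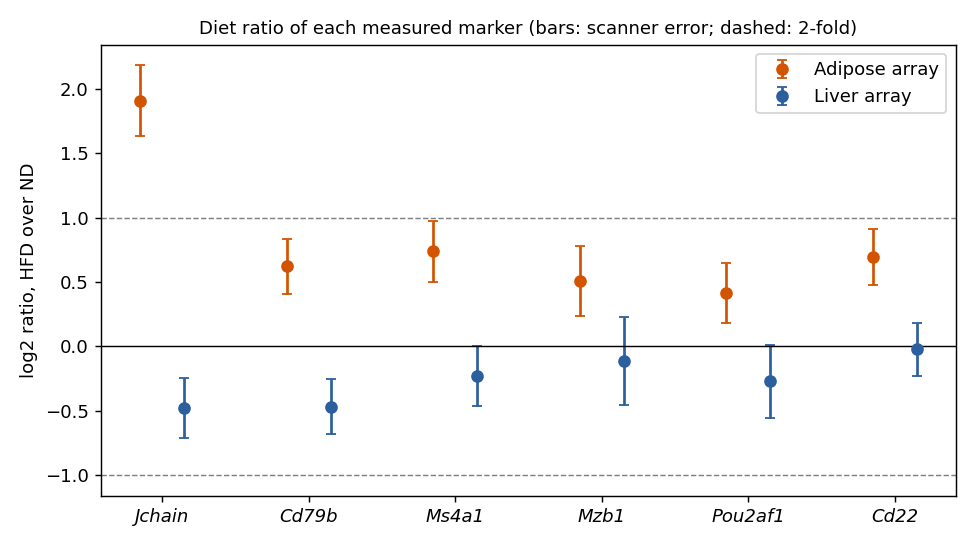
log2 ratio of the HFD pool over the ND pool for the 6 markers measured on the adipose array (orange) and the liver array (blue). Bars are the scanner software's error of the ratio, and dashed lines mark 2-fold. Adipose points run from 0.42 to 1.91 and liver points from -0.48 to -0.02, and Jchain on the adipose array is the only point past 2-fold.

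The size of these ratios depends on the normalization, and the cause was not tested. The adipose ND levels of Mzb1, Pou2af1 and Ms4a1 lay 0.61, 0.98 and 1.06 above the lowest level counted as well above background. With the scanner software's own ratio Mzb1 was at 1.17 and Ms4a1 at 1.08, both past 2-fold, and Pou2af1 at 0.69. With median centring in place of loess, under which the median of all adipose genes was 0.69, Cd22 was at 1.58, Cd79b at 1.39, Ms4a1 at 1.14, Jchain at 2.89 and Pou2af1 at 0.70, so that relative to all genes Pou2af1 lay 0.01 above the median and Mzb1 (0.57) below it. The liver ratio of Jchain was -0.88 with the software's ratio and -0.04 with all local backgrounds as deposited.

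**Figure D3:**
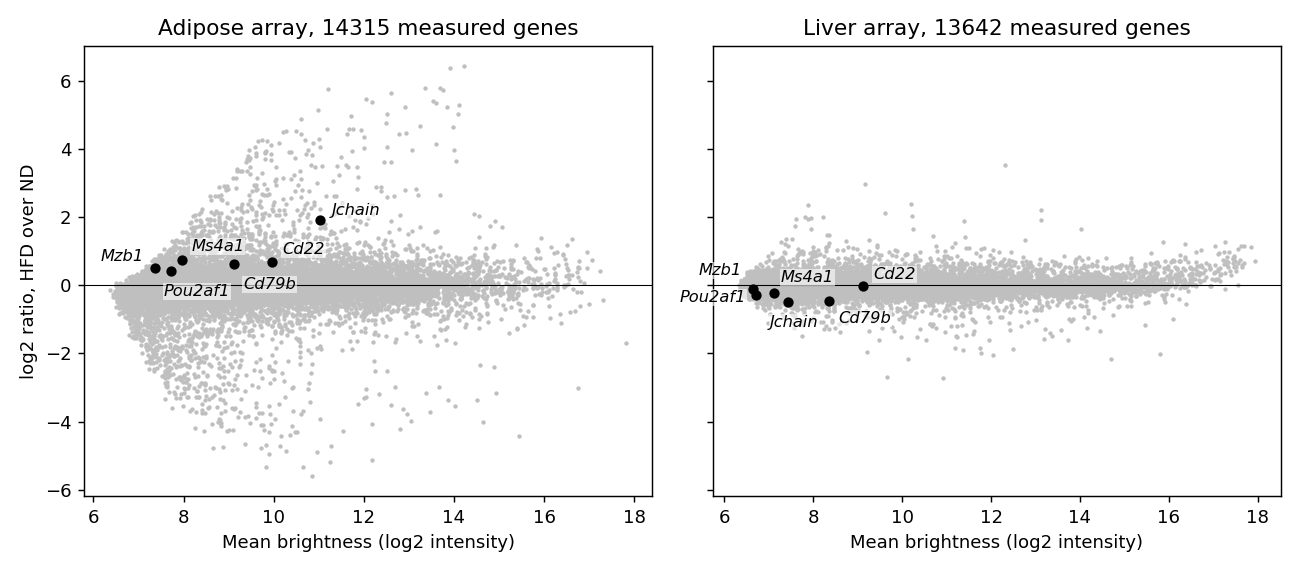
log2 ratio of the HFD pool over the ND pool against mean brightness (log2 intensity) for all measured genes of the adipose array (left) and the liver array (right), with the 6 measured markers in black. Jchain stands at 1.91 on the adipose array and the other markers lie between 0.42 (Pou2af1) and 0.74 (Ms4a1). Of all measured genes there, 14.4% have a higher ratio than Pou2af1 and 6.59% a higher one than Ms4a1. On the liver array the 6 markers lie between -0.48 and -0.02.

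Set against each other, the tissues differed most for Jchain. Its adipose ratio exceeded its liver ratio by 2.39, against a combined scanner error of 0.36. The difference was 1.09 for Cd79b, 0.97 for Ms4a1, 0.71 for Cd22, 0.69 for Pou2af1 and 0.62 for Mzb1, with combined errors of 0.30 to 0.44. A ratio above 0 in adipose tissue together with one below 0 in liver was seen in 6 of 6 markers and in 21.9% of the 12689 genes measured in both tissues, and a difference of at least 1 in 2 of 6 markers and in 3.77% of genes.

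The levels show in which pool the tissues part. In the HFD pools all 6 markers had a higher level on the adipose array than on the liver array, by 4.47 for Jchain and by 0.60 to 0.88 for the other markers (46.5% of genes were brighter on the adipose array, with a median difference of -0.08). In the ND pools Jchain was higher on the adipose array by 2.09, while Pou2af1 differed by 0.19, Cd22 by 0.16, Mzb1 by -0.03, Ms4a1 by -0.17 and Cd79b by -0.22. That made 3 of 6 markers brighter on the adipose array, against 47.6% of all genes. Without scaling between the arrays all 6 were brighter there, as were 60.0% of all genes, and without background subtraction 4 of 6, Mzb1 turning to 0.02. The ND levels of Mzb1, Ms4a1 and Cd79b therefore have no settled direction between the tissues.

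The reference table of promoters holds 4 of the 7 markers (Jchain, Cd79a, Pou2af1 and Cd22). In the 250 bases before the start of each, on both strands, a search was made for the octamer ATTTGCAT, the site of the factors that Pou2af1 assists, for the palindrome of the early B cell factor EBF (TCCC and GGGA spaced by 2 bases), and for the E-box CAGGTG bound by E2A. These motifs do not overlap in the windows shown, and 1.6%, 0.779% and 17.2% of 32851 mouse promoters of this length hold them. The promoter of Cd22 held the EBF palindrome, its first base 49 bases before the start, and an E-box on the opposite strand 245 bases before it. That of Cd79a held 1 E-box, and those of Jchain and Pou2af1 held none of the 3. Only exact matches were counted, so sites that differ from these letters were not found. Cd22 is shown as the promoter with an EBF match and Jchain as that of the marker with the largest ratio, both 5′ to 3′ on the minus strand of GRCm38.p6 (RefSeq), at chr7:30879029-30879278 and chr5:88527898-88528147, with matched motifs in capitals.
Cd22: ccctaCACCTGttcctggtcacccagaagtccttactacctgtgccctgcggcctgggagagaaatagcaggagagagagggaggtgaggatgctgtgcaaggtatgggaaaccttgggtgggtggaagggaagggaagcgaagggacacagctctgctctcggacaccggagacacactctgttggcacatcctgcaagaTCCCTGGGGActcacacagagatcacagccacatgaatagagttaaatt
Jchain: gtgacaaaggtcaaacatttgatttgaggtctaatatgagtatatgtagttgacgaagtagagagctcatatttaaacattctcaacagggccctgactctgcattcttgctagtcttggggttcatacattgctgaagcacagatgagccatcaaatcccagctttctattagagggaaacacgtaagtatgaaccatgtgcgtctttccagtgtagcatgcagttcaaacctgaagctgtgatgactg

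Other genes of receptor signalling lay slightly higher in the adipose HFD pool. Of 21 on the array 19 were measured there, 15 with a ratio above 0 and 4 below, none past 2-fold. The median was 0.24, and 49.3% of all genes had a ratio above 0. Among the highest were Cd5 (0.58), a negative regulator shared with T cells, and Cr2 (0.57), a complement receptor of B cells. The Cr2 ratio rests on 1 measured probe. Over all Cr2 probes the level was 7.15 in the HFD pool and 6.86 in the ND pool. Lyn, the kinase that starts and also restrains receptor signalling, was at -0.55. In liver 20 were measured with a median of 0.04, led by Blnk, the adaptor below the kinase SYK, at 0.50. Btk, a kinase of the same pathway, was at -0.36 there on 1 measured probe. Over all Btk probes the liver level was 6.53 in the HFD pool and 6.78 in the ND pool.

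Surface proteins and transcription factors of B cells had the same median in the adipose pools, 0.24 over 17 measured of 26. Of these 12 were above 0 (49.3% of all genes) and none past 2-fold. Fcmr, the receptor for IgM, was at 0.77, Cd40, which receives T cell help, at 0.70, Ly86, a partner of the toll-like receptor homologue CD180, at 0.67 and the transcription factor Bcl11a at 0.67. A further 5 were well above background in the HFD channel alone (Cxcr5, Fcer2a, Fcrla, Ikzf3 and Pou2f2), and none in the ND channel alone. Across all probes of that array the HFD channel alone was well above background for 4188 and the ND channel alone for 520. Pax5, the factor that fixes B cell identity, was in neither channel above background in either tissue. Ebf1, which adipocytes express as well, was at -0.31. In liver the 18 measured genes had a median of 0.05, led by the repressor Bach2 at 0.56 on 1 measured probe. Over all Bach2 probes the liver level was 7.32 in the HFD pool and 6.92 in the ND pool.

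The plasma cell program did not lie to one side in the adipose pools. Its 17 measured genes had a median of 0.06, with 10 above 0 (49.3% of all genes). None was past 2-fold upward (4.23%) and 2 were past it downward (5.13%). Cd38 (0.80), Sdc1 (0.75), the plasma cell surface proteoglycan syndecan-1, and Prdm1 (0.64), which encodes BLIMP1, were the highest. Other cell types also express all 3. Irf4, a factor that plasma cells need and that other immune cells and adipocytes express, was the lowest at -2.37 ± 0.31, at a level of 8.57 in the HFD pool and 10.9 in the ND pool on 1 probe. Tent5c (-1.02), Fkbp11 (-0.87) and Eaf2 (-0.41) also lay below 0. Pancreatic acinar cells are secretory too, and their 20 markers had a median of -1.89 in the same pools. Their part in these ratios was not tested. Tnfrsf17, the survival receptor BCMA, was well above background in the HFD channel alone. Its HFD level was 1.23-fold its ND level, a dim estimate that sets no lower bound. In liver the 15 measured genes had a median of 0.04, with Derl3, a factor of endoplasmic reticulum quality control, at 1.02 and Tent5c at -0.93. Of 14 immunoglobulin genes looked for, none was matched to a probe, so antibody transcripts are not analysed here.

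Signals that keep, attract or export the products of B cells held the largest ratios of the B cell lists. In the adipose pools 16 of 21 genes on the array were measured, with a median of 0.25. Of these 3 were at least 2-fold higher (4.23% of all genes) and 1 lower (5.13%). Ccl25, a chemokine of small intestine epithelium that draws IgA plasma cells, was at 2.49 ± 0.44, Ccr7, which guides lymphocytes into lymph nodes, at 1.13, and Pigr, the epithelial receptor that exports polymeric immunoglobulin, at 1.095. Ccl28, a mucosal chemokine for IgA plasma cells, was just under 2-fold at 0.99. Cxcl13, which draws B cells into follicles, was lower in the HFD pool of both tissues, at -1.14 in adipose tissue and -1.12 in liver. Tnfsf13b, the survival factor BAFF, was at 0.30 in adipose tissue. In liver the 14 measured genes had a median of 0.00, and Pigr was at 0.04.

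**Figure D4:**
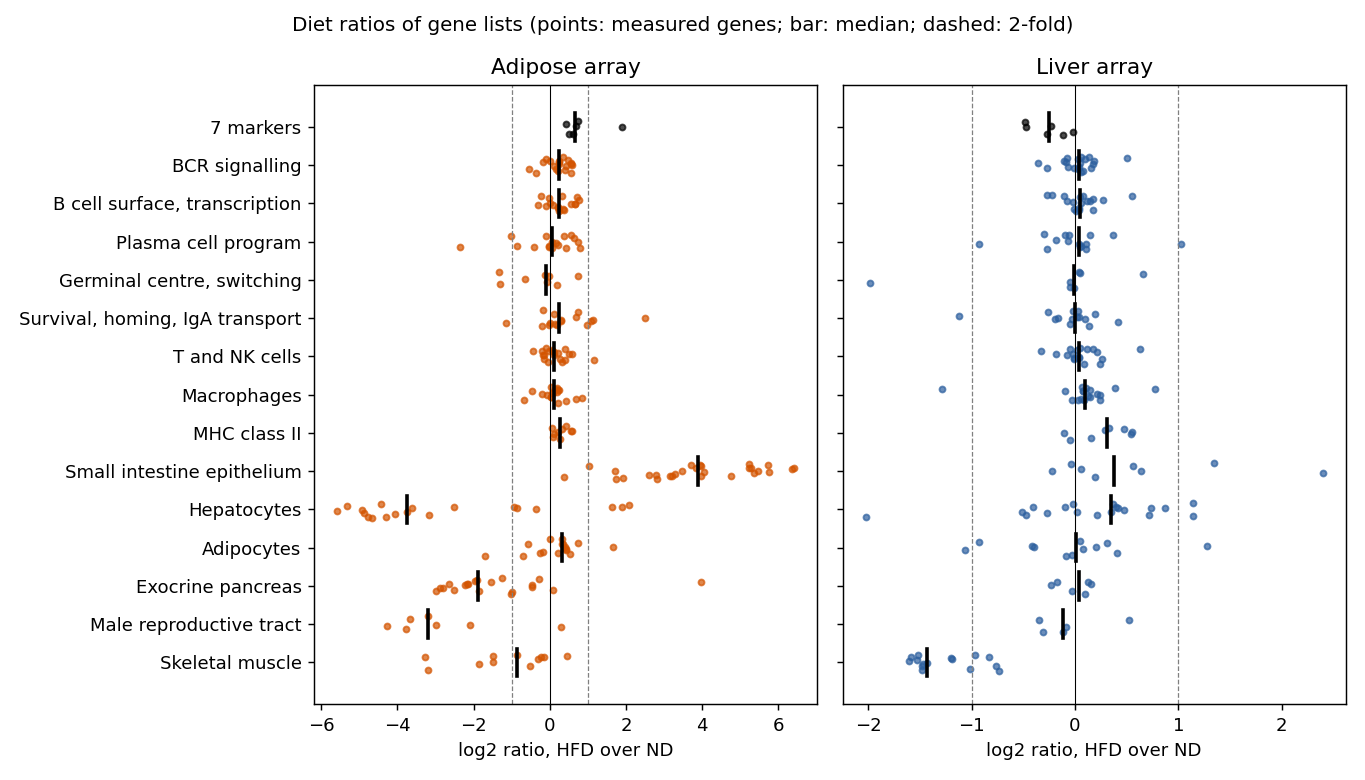
log2 ratio of the HFD pool over the ND pool for the measured genes of each list on the adipose array (left) and the liver array (right, with a narrower axis). Each point is a gene, the bar is the median of the list and dashed lines mark 2-fold. The 6 measured markers have medians of 0.66 and -0.25, while the small intestine list reaches a median of 3.90 and the male reproductive tract list of -3.19 on the adipose array.

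Markers of other cells moved beside the B cell markers in the adipose pools. The summed level of the small intestine list was 20.2 in the HFD pool and 16.2 in the ND pool, with Fabp2, the enterocyte fatty acid binding protein, at 6.42. All 29 of its genes on the array were well above background in the HFD channel. Of all 20886 genes on the adipose array, 16277 were well above background in at least 1 channel. In liver that list had 8 measured genes with a median of 0.38, and 12 of 29 were in neither channel above background. On the liver array 14419 of all 20884 genes were above background in at least 1 channel. The intestine holds IgA plasma cells and lymphoid follicles, and its part in the adipose ratios of Jchain and the other markers was not tested. T and NK cell genes had a median of 0.11 over 19 measured in adipose tissue. Gzma, a granule protease, was at 1.17 as the only one past 2-fold (4.23% of all genes upward and 5.13% downward). Cd3e, a chain of the T cell receptor complex, was at -0.44. In liver the T and NK cell genes had a median of 0.04 over 18. In liver, where the B cell markers were below 0, skeletal muscle genes had a median of -1.43 over 15. Of these 11 were at least 2-fold lower (0.579% of all genes). In the adipose pools, where the B cell markers were above 0, muscle genes were also lower, at a median of -0.85 over 11. A link between the 2 sets of genes was not tested.

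The patterns over the 4 pools separate Jchain from the other markers. Each gene's 4 levels were centred on their own mean and compared by root mean square distance over 12190 genes with an established symbol measured on both arrays. This rests on 4 points of 2 slides and says nothing of shared function. The nearest genes to Jchain were Sdcbp2 (0.19), Gdpd1 (0.19), Lrrc75a (0.23), Me2 (0.24) and Krt42 (0.27). The nearest other marker to Jchain was Cd22 at 1.45, which ranked 2763 by distance. Among the remaining markers the distances ran from 0.09 between Mzb1 and Ms4a1 to 0.19 between Cd22 and Cd79b. Many genes outside the markers lay as close. By distance Ms4a1 ranked 99 from Mzb1 and Cd79b ranked 413 from Cd22, while Ms4a1 ranked 4 from Cd79b. Nearest to Ms4a1 was Ccr6 (0.03), a chemokine receptor of B cells, followed by Ankle1, Sytl3, Snapc5 and Rccd1 (0.05 each). Cd79b had Snhg7 (0.06), Snapc5 (0.06), Xlr4b (0.07) and then Ms4a1 (0.09) nearest to it. Cd22 had Ets2 (0.02), Tnik (0.03), Ppip5k2 (0.04), Vamp5 (0.04) and Bcl11a (0.04). Mzb1 was nearest to Mis18a, Lhfp, Nfkbie, Fancb and Dusp2 (0.03 each), and Pou2af1 to Skil, Zfp747 and Igfbp3 (0.03 each).

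**Figure D5:**
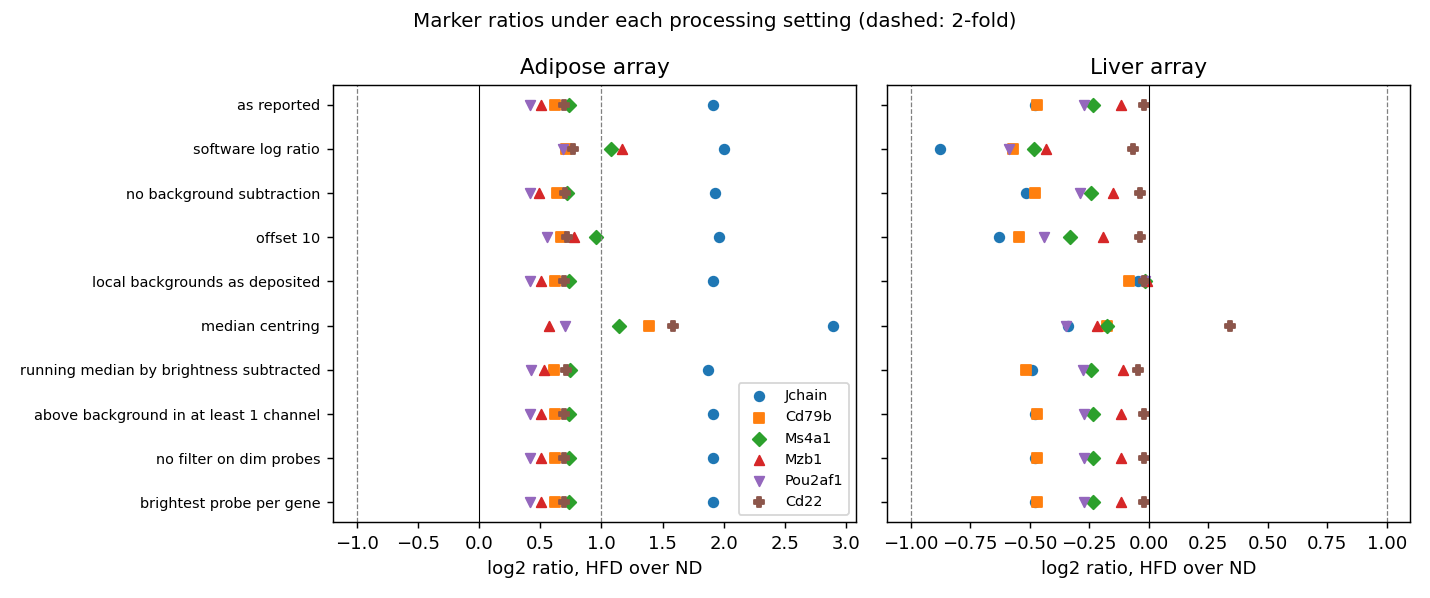
log2 ratio of the HFD pool over the ND pool of the 6 measured markers on the adipose array (left) and the liver array (right) under the reported processing (top) and 9 alternatives. Dashed lines mark 2-fold. All adipose points lie above 0, with Jchain between 1.87 and 2.89, and all liver points lie below 0 except Cd22 with median centring (0.34). With median centring the median of all adipose genes is itself 0.69.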

How the data were processed

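The files are the scanner output of 2 arrays. The deposited intensity columns give the median pixel intensity of each spot and its local background per channel, not normalized. The deposited log10 ratio is red over green as the scanner software corrected it for background and dye. It and its error were turned to log2 here. The program was Agilent Feature Extraction, in version 11.5.1.1 per the file headers and 8.5.1.1 per the submitters' processing notes. In limma 3.58.1 (R 4.3.3), local backgrounds marked as outliers were set to the array and channel median, background was corrected by normexp (offset 50), and loess was run within each array, control spots having weight 0. Outlier spots were left out, and no spot was saturated. A probe was above background when at least 0.5 of its spots were. Spots and then probes of a gene were averaged. Levels used Aquantile scaling. The steps were tested on simulated arrays. The number of arrays limits the precision.

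The 7 markers, 15 gene lists, 9 alternatives and the rule for named genes (all markers, the 4 largest ratios per list, any gene of the 6 B cell lists, the 5 nearest patterns) were chosen with earlier results of these data known. Some list genes are in more than 1 list, and a few named by this rule are left out of the text.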

Additional observations from a re-analysis of the deposited data

Results flagged for a closer look

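The ratios of the HFD pool over the ND pool lay on opposite sides of 0 in the tissues, above 0 in adipose tissue and below 0 in liver, for 6 markers. The adipose ratio minus the liver ratio was 2.39 for Jchain, 1.09 for Cd79b, 0.97 for Ms4a1, 0.71 for Cd22, 0.69 for Pou2af1 and 0.62 for Mzb1. With 1 array per tissue these differences were not tested, and 21.9% of genes showed the same pair of signs.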

How the results depend on the processing

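No paired analysis was possible because each tissue has 1 array and no result comes from a test across samples. Of the 9 alternatives, 3 (both looser filters and the brightest probe) cannot change a marker measured by 1 probe in both channels. Over the other 6, 36 of 36 adipose and 35 of 36 liver ratios of the markers kept their sign, and 28 and 29 stayed within the scanner error of the reported value. The exception in sign was Cd22 in liver with median centring (0.34). Under that setting the median of all adipose genes was itself 0.69. Relative to it Mzb1 lay at -0.12 and Pou2af1 at 0.01, so their kept sign does not set them above other genes. The count of markers at least 2-fold higher in adipose tissue was 1 as reported (4.23% of all genes). It was 3 with the software's ratio (6.29% of all genes) and 4 with median centring (29.4%). The median marker ratio, 0.66 as reported, was 0.93 with the software's ratio and 1.27 with median centring. In liver the median of -0.25 became -0.53 with the software's ratio and -0.018 with local backgrounds as deposited. Without scaling between arrays, 6 rather than 3 markers were brighter on the adipose array in the ND pools. The causes were not tested. Over all genes, 4208 were higher and 616 lower (87.2% of calls higher, against 45.1%) in adipose tissue with median centring, and 901 and 1230 with the software's ratio. In liver these counts were 445 and 28 (94.1% higher, against 45.9%) with median centring and 138 and 157 with the software's ratio. They were 20 and 35 there with local backgrounds as deposited, 116 and 79 (59.5%) when 1 bright channel was enough and 103 and 78 (56.9%) with no filter. For Mzb1, Pou2af1 and Ms4a1, low signal over background in the ND channel limits the precision of the ratio.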

Other observations

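MHC class II genes are shared by B cells, macrophages and dendritic cells. In the adipose pools all 9 measured had ratios above 0 (49.3% of all genes). Their median was 0.26, with H2-Oa, a chaperone subunit expressed in B cells, at 0.57 and H2-DMa at 0.56. In liver 6 of 8 were above 0 and 2 of 8 below 0, where 47.7% of all genes were below 0. Their median was 0.31, with H2-Aa at 0.55 and H2-Ab1 at 0.54. Macrophage markers had a median of 0.11 over 18 measured genes in adipose tissue, with the integrin Itgax at 0.84, and 0.10 over 18 in liver, where the scavenger receptor Marco was at -1.28. Adipocyte genes had a median of 0.31 over 16 in adipose tissue, with Lep, which encodes leptin, at 1.66 and Cfd, which encodes adipsin, at -1.70.

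The germinal centre list had a median of -0.10 over 8 measured genes in adipose tissue and -0.01 over 7 in liver. Ung, a uracil glycosylase of antibody diversification and DNA repair, was higher in the HFD pool of both tissues, at 0.74 in adipose tissue and 0.65 in liver. Bcl6, the repressor that germinal centre B cells need and hepatocytes also express, was at -0.65 in adipose tissue and -1.98 in liver. S1pr2, a receptor that holds B cells in germinal centres, was at -1.33 in adipose tissue and 0.04 in liver.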
